A study of Homo sapiens with 18 samples.

Results

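The CCR4-NOT complex was followed through the mRNAs of 10 of its subunits: CNOT1, CNOT2, CNOT3, CNOT4, CNOT6, CNOT6L, CNOT7, CNOT8, CNOT10 and CNOT11. They were picked by gene symbol and make up 10 of the 60252 gene IDs in each count file. All 10 had enough counts to be tested, with between 95 (CNOT6L) and 9493 (CNOT1) counts in a library.

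Libraries of total RNA were made from ZR-75-1, an established line of luminal breast cancer cells that carries the estrogen receptor. The 6 groups were ADAR knockdown cells with triptolide, control cells with triptolide, knockdown cells with DMSO, control cells with DMSO, untreated knockdown cells and untreated control cells, each with biological replicates 1, 2 and 3. Triptolide was given at 100 nM and DMSO was its vehicle, and all cells spent 16 h in medium with 1% serum before RNA was extracted. ADAR converts adenosine to inosine in double-stranded RNA, and triptolide stops transcription initiation by RNA polymerase II by binding the XPB subunit of TFIIH. The control line is labelled SHC, and a single knockdown line is named, so an effect of the knockdown cannot be told apart from other differences between these lines.

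CCR4-NOT is the main complex that shortens the poly(A) tails of cytoplasmic mRNAs, the step that usually begins their decay. CNOT1 is the scaffold on which the other subunits assemble. CNOT2 and CNOT3 dock at its carboxy-terminal end, CNOT10 and CNOT11 at its amino-terminal end, and the deadenylases in the middle. Catalytic activity comes from paralog pairs: CNOT7 and CNOT8 are the CAF1-type enzymes that bind CNOT1, and CNOT6 and CNOT6L are the CCR4-type enzymes that join through them. CNOT4 is a ubiquitin ligase that associates only loosely with the human complex. CNOT9, a further subunit, was not on the list and is not described. Sequence-specific proteins such as PUM2, which binds the Pumilio element, the AU-rich element binding ZFP36 family and the microRNA cofactors of the TNRC6 family bring the complex to chosen mRNAs, often through short elements in the 3′ untranslated region (3′UTR).

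Several subunit mRNAs carry such elements themselves. The 3′UTR of the canonical transcript of each member, taken from GENCODE release 44 mapped to GRCh37, was searched on the mRNA strand for the Pumilio element TGTANATA and the AU-rich heptamer TATTTAT, where N is any base. Of 18931 human 3′UTRs of any length, 26% hold the Pumilio element and 32% the heptamer. The Pumilio element was found 4 times in CNOT8, 2 times in CNOT7 and 1 time each in CNOT1, CNOT2 and CNOT6L. It was not found in the other 5 windows. Longer 3′UTRs hold the element more often, so each count was set beside 3′UTRs within 20% of the member's own length. For CNOT8, with 1353 bases, 0.215% of 2323 such 3′UTRs hold 4 or more. For CNOT7, 34.3% hold 2 or more, and at least 1 is held by 19.4% for CNOT1, 21.3% for CNOT2 and 69.8% for CNOT6L. The matches below are printed 5′ to 3′ on the mRNA strand, with the element in capitals, because the element is bound by proteins that recruit the complex. The matches of CNOT7 are counted but not printed. A match is a string of letters and not a bound site.
CNOT8 site 1, chr5:154255188-154255217, plus strand: tgctctgaattTGTAAATAagtcttcccca
CNOT8 site 2, chr5:154255315-154255344, plus strand: aagtagtaaaaTGTATATAactcttacctg
CNOT8 site 3, chr5:154255460-154255489, plus strand: aggtaatgggtTGTAGATActgagtcttcc
CNOT8 site 4, chr5:154256282-154256311, plus strand: tttaagatgctTGTAAATActatttatgtt
CNOT2, chr12:70748422-70748451, plus strand: atgtacgaatgTGTATATAttatatatatg
CNOT6L, chr4:78639671-78639700, minus strand: gtgaattttgaTGTAAATAaaatatctttt
CNOT1, chr16:58554602-58554631, minus strand: ttttgaacttgTGTAAATAcatgaaagaga

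The heptamer was found 2 times in CNOT6, 2 times in CNOT6L and 1 time each in CNOT3, CNOT7 and CNOT8. Among 3′UTRs of like length at least as many are held by 36.2% for CNOT6, 51.1% for CNOT6L, 9.02% for CNOT3, 72.1% for CNOT7 and 32.2% for CNOT8. CNOT4, CNOT10 and CNOT11 held neither element in these windows. Over both lines, the log2 changes with triptolide described below ran over -2.43 to -0.67 in the 5 members with a Pumilio element and over -1.16 to -0.49 in the 5 without, ranges that overlap and were not tested.

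Each library held 26.7e6 to 35.7e6 reads counted in genes. Mitochondrial ribosomal RNA took 42.7 to 55.2% of them in triptolide libraries and 20.2 to 37.1% in DMSO and untreated libraries. ADAR, the target of the knockdown, averaged 138 ± 27.2 CPM (SD, n = 3) in knockdown and 379 ± 77.9 CPM in control cells with triptolide, 289 ± 69.8 and 468 ± 193 CPM with DMSO, and 295 ± 87 and 479 ± 184 CPM untreated. Over the 3 treatments its log2 change in knockdown cells was -0.95 ± 0.19 (SE, edgeR adjusted p = 0.0188). Luminal markers reached 1 CPM for 8 of 8 genes in every group. CPM here means counts scaled to a common library total with factors from the trimmed mean of M values (TMM), which sets the bulk of genes level between libraries. It carries no correction for gene length, so levels of different genes are compared only per kilobase.

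Triptolide was compared with DMSO to see how far each subunit mRNA remained, relative to other mRNAs, after a block of transcription. Each of the 10 subunit mRNAs was lower with triptolide in all 6 pairs of a triptolide library and the DMSO library of the same line and number, as were 28.5% of all genes tested. CNOT2 was lowered most, to 17.3% of DMSO in knockdown cells and 19.8% in control cells, and CNOT6L next, to 19.5% and 32.9%. CNOT11 kept the most among the members in knockdown cells (72.5%) and CNOT6 in control cells (79%). By edgeR's quasi-likelihood test, with p-values adjusted over all 21285 genes tested and a threshold of 0.05, 8 of 10 members fell in knockdown cells, where 18.9% of all genes did. Without triptolide replicate 1 or DMSO replicate 2 of the knockdown line that count was 5. As single libraries of this comparison were left out, 6075 to 7265 of all genes were called in either direction, beside 7589 in the full fit. In control cells 6 of 10 fell, where 16% of all genes did, and in the mean over both lines 9 of 10, where 25.7% of all genes did. None rose, whereas 16.7%, 14.9% and 25.2% of all genes did. With the replicate number as a block the counts were 10 of 10 in knockdown cells (28.1% of all genes), 9 of 10 in control cells (26% of all genes) and 10 of 10 over both lines (32.6% of all genes).

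The members' median log2 change was -1.12 in knockdown cells, -0.97 in control cells and -1.07 over both lines, beside 0.04, 0.03 and 0.04 for all genes tested. Protein-coding genes with a mean level between 10 and 200 CPM, which spans the members' own means of 13 to 182 CPM over the 18 libraries, had lower calls in 29.4%, 24.8% and 36.3% and medians of -0.18, -0.15 and -0.16. In a dataset of bulk RNA, fewer cells and less RNA per cell cannot be told apart, and the labels name no spike-in that would fix the total amount. A change is therefore relative to the other genes of the library. Scaling to library totals moved the median gene to -0.63 and scaling to the 13 mitochondrially encoded mRNAs moved it to -1.07 over both lines. A pass of a member under either scaling, given below, includes this shift of all genes. Under each of the 7 settings, the main fit among them, 10 of 10 members stayed below the median gene. A change of scaling moves all genes nearly alike, so the scalings could not have altered this and do not test it.

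**Figure D1:**
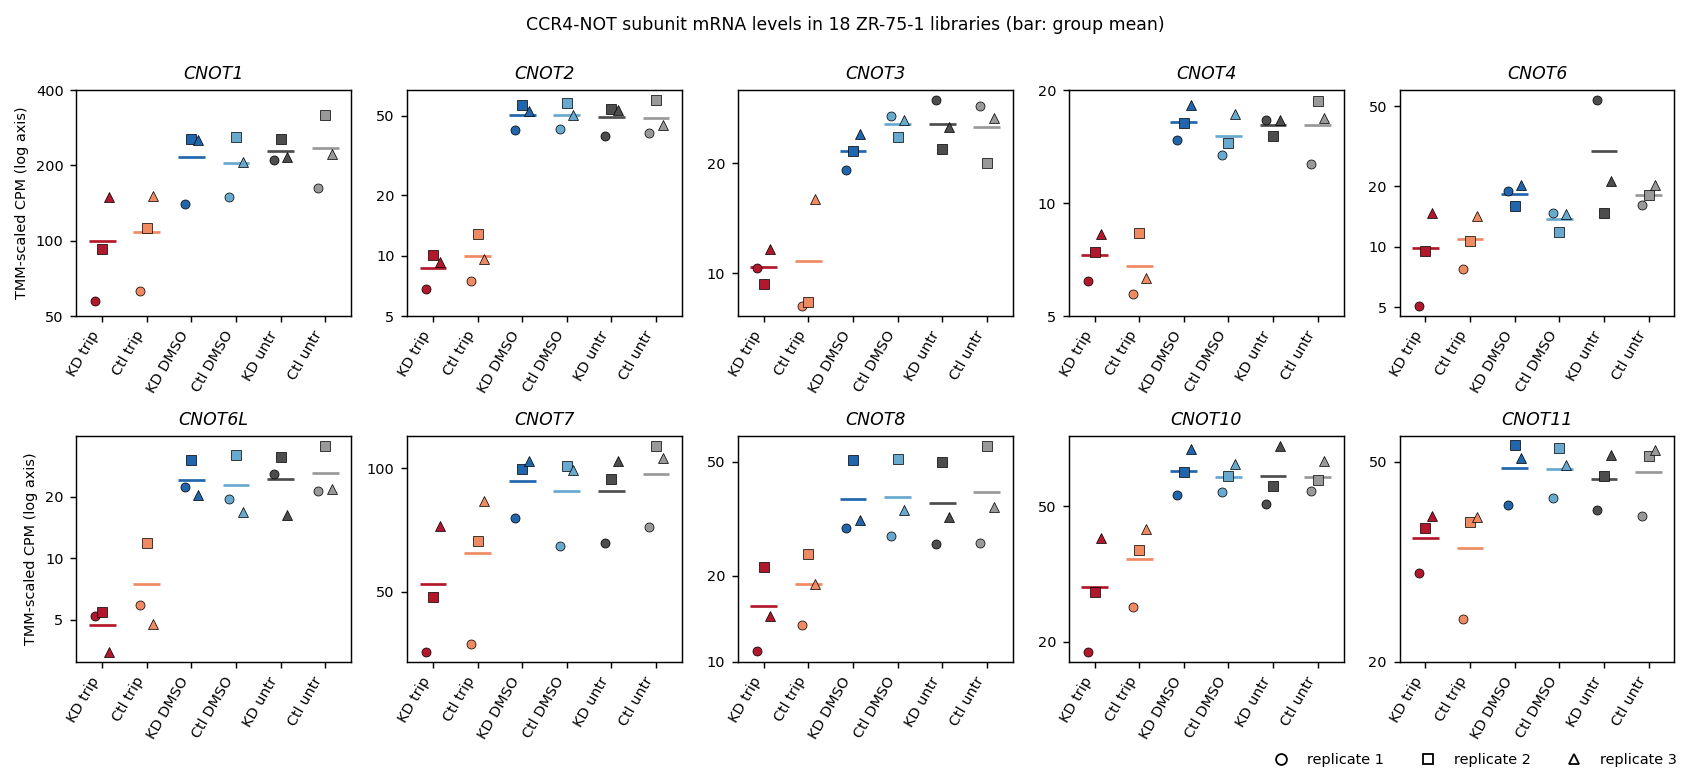
Levels of the 10 subunit mRNAs in TMM-scaled CPM on a log axis, 1 panel per gene, with 1 point per library, the symbol giving the replicate number and the bar the mean of 3 libraries. The groups run as knockdown (KD) before control (Ctl) for triptolide (trip), DMSO and untreated (untr) cells, and for most genes the triptolide points sit lowest, with the widest gap for CNOT2 and CNOT6L and a single high untreated knockdown library for CNOT6.

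**Figure D2:**
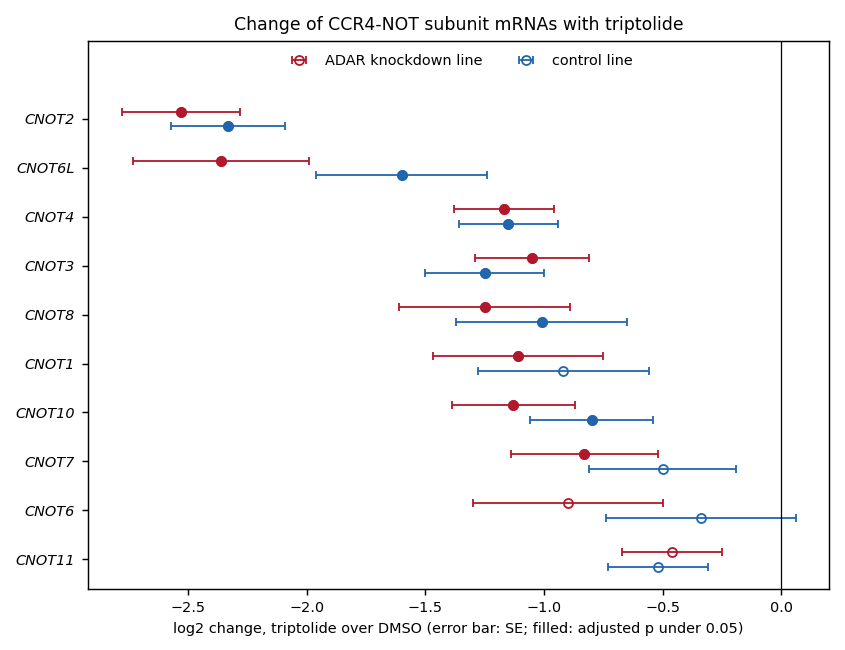
Log2 change of each subunit mRNA, triptolide over DMSO, in the ADAR knockdown line (red, upper of each pair) and the control line (blue, lower), with bars of 1 SE. Filled points have an edgeR adjusted p under 0.05, and the order runs from CNOT2 at -2.53 and -2.33 to CNOT11 at -0.46 and -0.52.

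The scaffold stood at 46.3% of its DMSO level in knockdown and 53% in control cells. CNOT1 (ENSG00000125107.12, chromosome 16, 58553855 to 58663789, minus strand of GRCh37) stood at 57.7, 92.5 and 149 CPM in replicates 1, 2 and 3 of knockdown cells with triptolide, against 140, 254 and 253 CPM with DMSO. In control cells it stood at 63.2, 112 and 151 CPM with triptolide and 150, 259 and 206 CPM with DMSO. Replicate 1 was the lowest library of each of these groups, and the highest triptolide library lay just above the lowest DMSO library in each line, so the groups overlapped. The log2 change was -1.11 ± 0.36 in knockdown cells (SE, edgeR adjusted p = 0.0244) and -0.92 ± 0.36 in control cells (0.0646, and 0.000496 with the replicate block). The control change passed without DMSO replicate 1 (-1.11, 0.0473) or triptolide replicate 3 (-1.24, 0.0308) of that line, with library totals (-1.56, 0.00137), with mitochondrial scaling (-1.78, 0.00501) and without the low-count filter (-1.05, 0.000761). Its knockdown call ended when any of 4 single libraries was left out: triptolide replicate 1 (0.108) or 2 (0.0716), or DMSO replicate 2 (0.0738) or 3 (0.0743). Untreated cells had 211, 256 and 217 CPM in the knockdown line and 162, 319 and 223 CPM in the control line.

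In the NOT module, CNOT2 fell to 18.5% of its DMSO level over both lines and its binding partner CNOT3 to 45.1%. CNOT2 (ENSG00000111596.11_1, chromosome 12, 70636782 to 70748773, plus strand) had 6.8, 10.1 and 9.26 CPM in knockdown cells with triptolide, against 42.3, 56.6 and 52.8 CPM with DMSO. Control cells had 7.49, 12.8 and 9.67 CPM with triptolide and 42.9, 58.2 and 50.2 CPM with DMSO. The 6 triptolide libraries lay well below the 6 DMSO libraries, and the untreated libraries, at 39.8 to 60.2 CPM, stood where the DMSO libraries did. The fall was 5.79-fold in knockdown cells (log2 -2.53 ± 0.25, edgeR adjusted p = 1.89e-06) and 5.04-fold in control cells (-2.33 ± 0.24, 4.84e-06). Only 2.32% of the genes tested had a lower log2 change than CNOT2 over both lines.

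CNOT3 (ENSG00000088038.17_2, chromosome 19, 54641465 to 54659419, plus strand) had 10.3, 9.35 and 11.6 CPM in knockdown cells with triptolide, against 19.2, 21.6 and 24.1 CPM with DMSO. In control cells it had 8.13, 8.32 and 15.9 CPM with triptolide and 27, 23.6 and 26.2 CPM with DMSO. The groups did not overlap in either line, although control replicate 3 with triptolide stood well above the other control triptolide libraries. CNOT3 fell 2.08-fold in knockdown cells (log2 -1.05 ± 0.24, edgeR adjusted p = 0.00293) and 2.37-fold in control cells (-1.25 ± 0.25, 0.00109). LENG1, a neighbour on the opposite strand, covers 7.64% of the exon length of CNOT3 and had 25.2% as many counts, and since no source says whether strand was used in counting, reads of this overlap may be shared.

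CNOT4, the ubiquitin ligase (ENSG00000080802.18_1, chromosome 7, 135046547 to 135194893, minus strand), varied little between replicates. It had 6.21, 7.39 and 8.26 CPM in knockdown cells with triptolide, against 14.7, 16.3 and 18.3 CPM with DMSO. Control cells had 5.72, 8.32 and 6.31 CPM with triptolide and 13.4, 14.5 and 17.3 CPM with DMSO. Every triptolide library lay well below every DMSO library. The fall was 2.26-fold in knockdown cells (log2 -1.17 ± 0.21, edgeR adjusted p = 0.000406) and 2.22-fold in control cells (-1.15 ± 0.21, 0.000601).

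The CCR4-type enzymes parted from each other. CNOT6L (ENSG00000138767.12_2, chromosome 4, 78634541 to 78740769, minus strand) had 5.22, 5.47 and 3.5 CPM in knockdown cells with triptolide, against 22.2, 30.1 and 20.3 CPM with DMSO. Control cells had 5.93, 11.9 and 4.76 CPM with triptolide and 19.6, 31.9 and 16.9 CPM with DMSO. Every triptolide library was below every DMSO library, and control replicate 2 with triptolide stood above the other 5. CNOT6L fell 5.13-fold in knockdown cells (log2 -2.36 ± 0.37, edgeR adjusted p = 0.000134) and 3.03-fold in control cells (-1.60 ± 0.36, 0.0027).

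CNOT6 (ENSG00000113300.11_1, chromosome 5, 179921379 to 180005358, plus strand), the other CCR4-type enzyme, had 5.09, 9.58 and 14.8 CPM in knockdown cells with triptolide, against 19, 15.9 and 20.2 CPM with DMSO. In control cells it had 7.75, 10.7 and 14.2 CPM with triptolide and 14.8, 11.9 and 14.6 CPM with DMSO. The groups were apart in knockdown cells but overlapped in control cells, where replicates 2 and 3 kept 90.1% and 97.3% of their DMSO level. Its log2 change did not pass the edgeR test in knockdown cells (-0.90 ± 0.40, adjusted p = 0.0886, and 0.0309 with the replicate block) or in control cells (-0.34 ± 0.40, 0.556, 95% interval -1.21 to 0.53). The knockdown change passed without triptolide replicate 3 (-1.34, 0.027), with library totals (-1.60, 0.00552), with mitochondrial scaling (-2.34, 0.000191) and without the low-count filter (-0.99, 0.00621). Over both lines it was -0.62 ± 0.28 (0.0759), which passed with the replicate block (0.03), with library totals (-1.30, 0.00127), with mitochondrial scaling (-1.79, 3.27e-05), without the low-count filter (-0.73, 0.00223), with only the groups compared (-0.63, 0.0354) and without triptolide replicate 3 of the knockdown line (-0.85, 0.0218) or of the control line (-0.76, 0.0486).

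Because both enzymes are read in the same library, their count ratio does not depend on the scaling. CNOT6 over CNOT6L ranged over 0.974 to 4.2 in knockdown cells with triptolide, against 0.529 to 0.992 with DMSO. In control cells it ranged over 0.906 to 2.97 with triptolide and 0.374 to 0.862 with DMSO. These are ratios of counts without a correction for length, so only their change between libraries is compared. The ratio was higher with triptolide in 6 of 6 pairs, least so in knockdown replicate 1 (0.856 with DMSO and 0.974 with triptolide), and the knockdown ranges overlapped. Untreated cells had ratios of 0.474 to 2.07 in the knockdown line and 0.513 to 0.922 in the control line. The mean log2 ratio was 0.78 ± 0.89 (SD, n = 6) with triptolide and -0.53 ± 0.53 with DMSO, a difference of 1.31 or 2.47-fold (exact permutation test within lines, two-sided p = 0.01 over 400 arrangements, and 0.04 adjusted over 4 ratio tests). The exact sign-flip test over the 6 pairs gave p = 0.0312, the smallest it can give. Both tests take same-numbered libraries of the lines as independent, although libraries of the same number correlated.

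**Figure D3:**
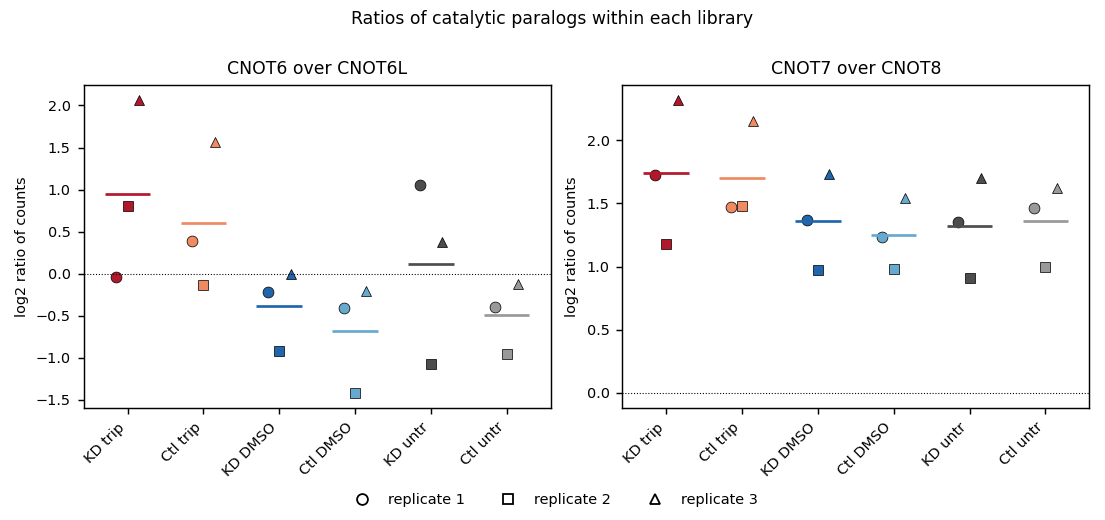
Log2 ratio of counts of CNOT6 over CNOT6L (left) and CNOT7 over CNOT8 (right) in each of 18 libraries, by group, with the replicate number as symbol and the group mean as bar. The CNOT6 ratio lies higher with triptolide than with DMSO at each replicate number, by 1.31 on average, and the CNOT7 ratio by 0.42.

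The CAF1-type enzymes stood between CNOT6L and CNOT6, with CNOT7 at 63% and CNOT8 at 45.7% of DMSO over both lines, beside 25.4% for CNOT6L and 65% for CNOT6. CNOT7 (ENSG00000198791.11_1, chromosome 8, 17082475 to 17104387, minus strand) had 35.8, 48.7 and 72.5 CPM in knockdown cells with triptolide, against 75.6, 99.6 and 104 CPM with DMSO. Control cells had 37.3, 66.4 and 83 CPM with triptolide and 64.7, 101 and 98.7 CPM with DMSO. Replicate 1 was lowest and replicate 3 highest among the triptolide libraries of each line, and the groups overlapped in control cells only. CNOT7 fell in knockdown cells (log2 -0.83 ± 0.31, edgeR adjusted p = 0.0443). The call ended without triptolide replicate 1 (-0.63, 0.171) or 2 (-0.79, 0.112), without DMSO replicate 2 (-0.79, 0.0966) or 3 (-0.76, 0.112), with DESeq2 size factors (-0.77, 0.0649) and with the DESeq2 Wald test (-0.77, 0.0539). In control cells the change was -0.50 ± 0.31 (0.233, and 0.00268 with the replicate block), and passed with library totals (-1.15, 0.00341) and mitochondrial scaling (-1.34, 0.0183).

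CNOT8 (ENSG00000155508.13_2, chromosome 5, 154237113 to 154256352, plus strand), whose 3′UTR holds the 4 Pumilio elements printed above, had 10.9, 21.5 and 14.5 CPM in knockdown cells with triptolide, against 29.3, 50.9 and 31.3 CPM with DMSO. In control cells it had 13.5, 23.8 and 18.7 CPM with triptolide and 27.6, 51.1 and 34 CPM with DMSO. Replicate 2 was the highest library of each group, and no triptolide library reached a DMSO library. CNOT8 fell 2.38-fold in knockdown cells (log2 -1.25 ± 0.36, edgeR adjusted p = 0.0117) and 2.01-fold in control cells (-1.01 ± 0.36, 0.04). The knockdown call ended without triptolide replicate 1 (0.0565) or DMSO replicate 2 (0.0603). The control call ended without triptolide replicate 1 (0.144) or 3 (0.0796), without DMSO replicate 2 (0.178) or 3 (0.057), and with DESeq2 size factors (0.0548).

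The count ratio of CNOT7 over CNOT8, again without a correction for length, was 2.26 to 4.99 in knockdown cells with triptolide and 1.96 to 3.31 with DMSO. Control cells had ratios of 2.77 to 4.44 with triptolide and 1.98 to 2.9 with DMSO. The ratio was higher with triptolide in 6 of 6 pairs, but the ranges overlapped in both lines. Replicate 2 was the lowest library with DMSO in both lines and with triptolide in knockdown cells. In control cells with triptolide, replicates 1 and 2 were nearly level, at 2.77 and 2.79. Per kilobase of exon, CNOT7 and CNOT8 had 4.78 and 3.97 CPM in knockdown cells with triptolide and 8.5 and 9.47 CPM with DMSO, and 5.69 and 4.76 CPM in control cells with triptolide and 8.05 and 9.54 CPM with DMSO. The mean log2 ratio was 1.72 ± 0.44 (SD, n = 6) with triptolide and 1.30 ± 0.30 with DMSO, and the difference of 0.42 did not pass the exact permutation test (p = 0.115, and 0.23 adjusted over 4 ratio tests). Read by pairs, it passed the exact sign-flip test (p = 0.0312, the smallest it can give), which takes pairs that share a replicate number as independent.

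In the amino-terminal module, CNOT10 stood at 51.2% of DMSO over both lines and CNOT11 at 71.1%. CNOT10 (ENSG00000182973.18_2, chromosome 3, 32726637 to 32815367, plus strand) had 18.7, 28 and 40.4 CPM in knockdown cells with triptolide, against 54.2, 63.3 and 73.8 CPM with DMSO. Control cells had 25.3, 37.2 and 42.9 CPM with triptolide and 55.1, 61.6 and 66.5 CPM with DMSO. The groups did not overlap in either line. CNOT10 fell 2.19-fold in knockdown cells (log2 -1.13 ± 0.26, edgeR adjusted p = 0.0026) and 1.74-fold in control cells (-0.80 ± 0.26, 0.0253). The control call ended without triptolide replicate 1 (0.115) or DMSO replicate 2 (0.0614) or 3 (0.0739).

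CNOT11, its partner (ENSG00000158435.7_1, chromosome 2, 101869348 to 101886778, plus strand), had 30.1, 36.9 and 39 CPM in knockdown cells with triptolide, against 41.1, 54.1 and 50.9 CPM with DMSO. In control cells it had 24.3, 37.9 and 38.9 CPM with triptolide and 42.3, 53.3 and 49.4 CPM with DMSO. Each triptolide group lay wholly below its DMSO group, though by little. The log2 change was -0.46 ± 0.21 in knockdown cells (edgeR adjusted p = 0.0924, and 0.00221 with the replicate block) and -0.52 ± 0.21 in control cells (0.0671, and 0.000677 with the replicate block). The control change also passed without triptolide replicate 3 (-0.65, 0.0497). With library totals both passed (-1.16, 6.7e-05 in knockdown and -1.17, 8.92e-05 in control cells), and likewise with mitochondrial scaling (-1.87, 0.000665 and -1.33, 0.0161 in these lines). Over both lines CNOT11 fell 1.41-fold (-0.49 ± 0.15, 0.0101), and 30.9% of the genes tested had a lower change.

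Counted over members, triptolide and DMSO libraries did not overlap for 9 of 10 in knockdown cells, where 24.7% of all genes lay wholly lower. The exception was CNOT1. In control cells the count was 7 of 10, with CNOT1, CNOT6 and CNOT7 as exceptions, where 22.2% of all genes lay wholly lower. With the 6 triptolide libraries set against the 6 DMSO libraries it was 7 of 10, beside 16.1% of all genes.

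With the unequal declines the order of the subunits by group mean changed. Per kilobase of exon, CNOT1 stood first with DMSO, at 19.9 CPM per kilobase in knockdown and 18.9 in control cells, and CNOT11 second, at 18 and 17.9. With triptolide CNOT11 stood first, at 13.1 in knockdown and 12.5 in control cells, and CNOT1 second, at 9.19 and 10. CNOT10 had rank 3 in each of these groups. Over the canonical transcript length instead, CNOT1 and CNOT11 had 11.9 ± 5.47 and 14 ± 1.86 CPM per kilobase (SD, n = 3) in knockdown cells with triptolide, and 25.7 ± 7.79 and 19.4 ± 2.71 with DMSO. In control cells CNOT1 and CNOT11 had 13 ± 5.22 and 13.4 ± 3.25 with triptolide, nearly level, and 24.4 ± 6.53 and 19.2 ± 2.23 with DMSO. By that length CNOT10 had rank 2 with DMSO, at 23 ± 3.53 in knockdown and 22 ± 2.07 in control cells, and CNOT11 rank 3. CNOT1 and CNOT10 with DMSO, and CNOT11 and CNOT1 with triptolide, thus differed by less than the SD of CNOT1. CNOT2 depended on the length used: with DMSO it had rank 6 in knockdown and rank 7 in control cells per kilobase of all exons, and rank 4 in both per kilobase of the canonical transcript. At the bottom, CNOT6L had rank 10 in knockdown cells with triptolide by either length, at 0.506 CPM per kilobase of exon.

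Markers of other cell types were looked at beside these changes. Over 3 basal markers the summed level was 0.536 to 1.4 CPM in knockdown cells with triptolide and 0.142 to 0.216 CPM with DMSO, and 0.501 to 1.06 CPM in control cells with triptolide and 0.122 to 0.454 CPM with DMSO. The basal ranges did not overlap between triptolide and DMSO in either line. The 3 stromal markers summed to 14.2 to 33.1 CPM in knockdown cells with triptolide and 8.54 to 16.4 CPM with DMSO, and to 13.5 to 21.2 CPM in control cells with triptolide and 11.4 to 14.3 CPM with DMSO. The 2 matched endothelial markers summed to 2.4 to 3.82 CPM in knockdown cells with triptolide and 0.823 to 1.99 CPM with DMSO, and to 1.94 to 5.12 CPM in control cells with triptolide and 1.06 to 2.84 CPM with DMSO. Of the leukocyte markers, CD14 had 1.67, 0.514 and 0.644 CPM in knockdown cells with triptolide and 0, 0.0276 and 0 CPM with DMSO, and 1.14, 0.823 and 1.5 CPM in control cells with triptolide and 0.0239, 0 and 0 CPM with DMSO. CD14 was thus higher in every triptolide library than in every DMSO library, and edgeR over both lines called it higher (adjusted p = 1.33e-06). PTPRC had 0.045, 0.421 and 0.107 CPM in knockdown cells with triptolide and 0, 0.0276 and 0 CPM with DMSO, and 0.212, 0.145 and 0.1 CPM in control cells with triptolide and 0 CPM in each library with DMSO. CD3E had 0.045, 0.187 and 0.286 CPM in knockdown cells with triptolide and 0.0241, 0 and 0 CPM with DMSO, and 0.127, 0.0968 and 0.2 CPM in control cells with triptolide and 0.0239, 0 and 0.0323 CPM with DMSO. These 2 also stood higher in every triptolide library than in every DMSO library, and had too few counts to be tested. COL1A2 was at 0 in both DMSO groups. By edgeR over both lines, 1 of 1 tested basal, 2 of 2 stromal and 1 of 1 endothelial markers were higher with triptolide. Of the 8 luminal markers 3 were lower and 0 higher (5 and 3 with the replicate block). The part of these shifts, and of the larger share of mitochondrial ribosomal RNA, in the subunit changes was not tested.

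The ADAR knockdown was set against control to ask whether the lines differ in subunit levels. No subunit mRNA was called in any treatment. By edgeR 0 of 10 members passed in cells with triptolide (0.0658% of all genes did), with DMSO (0.094%), untreated (0.0987%) or over the 3 treatments (0.836%), and 0 of 10 with the replicate block (0.644%, 0.606%, 0.578% and 3.39% of all genes). None had an unadjusted p under 0.05 in any of the 4 comparisons, and the DESeq2 Wald test called 0 of 10 in each. The log2 changes ran over -0.67 to 0.10 with triptolide, -0.24 to 0.42 with DMSO, -0.14 to 0.71 untreated and -0.23 to 0.33 over the 3 treatments. Over the 3 treatments the 95% intervals of the members lay within -0.67 and 0.83, so differences inside that span are not shown to be absent. The members' median was -0.07, beside -0.03 for all genes.

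The untreated levels of most other members lay close together in the lines. Of the non-catalytic subunits, CNOT3 averaged 25.6 ± 3.95 CPM (SD, n = 3) in knockdown and 25.1 ± 4.54 CPM in control cells, and CNOT4 16.2 ± 0.909 CPM in knockdown and 16.1 ± 3.03 CPM in control cells. CNOT10 averaged 61.3 ± 12.5 CPM in knockdown and 61.1 ± 6.48 CPM in control cells, and CNOT11 46.1 ± 5.76 CPM in knockdown and 47.7 ± 7.52 CPM in control cells. In each of these 4 the lines differed by less than the SD of either. Of the enzymes, CNOT6L averaged 24.4 ± 7.56 CPM in knockdown and 26.2 ± 7.87 CPM in control cells, CNOT7 87.9 ± 19.9 CPM in knockdown and 97.1 ± 22.2 CPM in control cells, and CNOT8 36 ± 12.6 CPM in knockdown and 39.1 ± 15.8 CPM in control cells. Here too the difference lay within the SD.

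Over the 3 treatments CNOT6 and CNOT6L stood at the ends of the range, in opposite directions. CNOT6 had a log2 change of 0.33 ± 0.23 (95% interval -0.17 to 0.83) and CNOT6L of -0.23 ± 0.20 (-0.67 to 0.21) in knockdown cells. Without replicate 1 of the untreated knockdown cells the CNOT6 change was 0.08, and without triptolide replicate 2 of the control line the CNOT6L change was -0.07, with ranges of 0.08 to 0.44 and -0.31 to -0.07 as single libraries were left out. Untreated CNOT6 had 53.5, 14.8 and 21.2 CPM in knockdown cells, against 16.2, 18.1 and 20.2 CPM in control cells. The first knockdown library alone stood apart, and without it the log2 change of 0.71 ± 0.40 became -0.02. With DMSO the 3 CNOT6 values in knockdown cells all exceeded the 3 in control cells (3.25% of all genes were wholly higher), at 0.42 ± 0.40. With triptolide CNOT6L was lower in knockdown cells by a log2 change of -0.67 ± 0.36, and the groups overlapped. That change was -0.18 without triptolide replicate 2 of the control line and ranged over -0.91 to -0.18 as single libraries were left out. The CNOT6 over CNOT6L ratio was higher in knockdown cells in 7 of 9 pairs, with a mean log2 ratio of 0.23 ± 0.99 (SD, n = 9) in knockdown and -0.19 ± 0.84 in control cells. That difference of 0.42 did not pass the exact permutation test (p = 0.256, and 0.341 adjusted over 4 ratio tests) or the exact sign-flip test over pairs (p = 0.0508). The CNOT7 over CNOT8 ratio was 1.47 ± 0.44 in knockdown and 1.44 ± 0.35 in control cells (p = 0.847, same permutation test).

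Whether triptolide acted differently on the lines was tested by the interaction of line and treatment. The log2 change with triptolide was more negative in knockdown cells for 8 of 10 members, with CNOT6L at -0.76 ± 0.50 and CNOT6 at -0.56 ± 0.56 showing the largest such differences. The members' median difference was -0.22, beside -0.02 for all genes. The share of all genes that were more negative is not given here, and the members share their libraries, so 8 of 10 is a description only. By edgeR 0 of 10 members passed, none had an unadjusted p under 0.05, and 0% of all genes passed, so the lines were not shown to differ in their response. As single libraries were left out, CNOT6L ranged over -1.10 to -0.27, with -0.27 without triptolide replicate 2 of the control line, and CNOT6 over -0.99 to -0.25, with -0.25 without triptolide replicate 1 and -0.99 without triptolide replicate 3 of the knockdown line.

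The vehicle was set against untreated cells as a baseline. By edgeR 0 of 10 members, and 0% of all genes, were called between DMSO and untreated cells in either line, with 0 members at an unadjusted p under 0.05. The log2 changes ran over -0.70 to 0.08 in the knockdown line and -0.40 to 0.05 in the control line. CNOT6 was the 1 member whose DMSO libraries, at 11.9 to 14.8 CPM in control cells, lay wholly below the untreated ones at 16.2 to 20.2 CPM, as 1.15% of all genes did.

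Other lists of mRNA decay genes were counted in the same fit over both lines, in which 25.7% of all genes fell and 25.2% rose. Of 8 listed deadenylases, partners and relatives outside CCR4-NOT, 4 fell and 1 rose, at a median log2 change of -0.47. TOE1, a nuclear deadenylase of small RNAs, changed by -1.82 ± 0.28 (edgeR adjusted p = 4.44e-05), PAN3, which tethers the PAN2 deadenylase, by -0.94 ± 0.18 (0.000325), NOCT, nocturnin, a relative of the CCR4-type enzymes, by -1.01 ± 0.22 (0.000923) and PDE12, a mitochondrial deadenylase, by -0.72 ± 0.19 (0.00384). The median was -1.07 over the 10 members and 0.04 over all genes.

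Among 22 adaptors that recruit CCR4-NOT, 8 fell and 5 rose, at a median of -0.09, where 25.7% of all genes fell and 25.2% rose. PUM2, a protein of the Pumilio family, averaged 8.85 ± 2.68 CPM (SD, n = 3) in knockdown cells with triptolide and 41.3 ± 3.12 CPM with DMSO, and 10.7 ± 3.16 CPM in control cells with triptolide and 38.5 ± 5.77 CPM with DMSO. Its log2 change was -2.04 ± 0.20 (edgeR adjusted p = 3.66e-07). ZFP36L1, which binds AU-rich elements, changed by -0.76 ± 0.12 (5.26e-05), and TNRC6C, a microRNA cofactor, rose by 1.01 ± 0.16 (5.62e-05).

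Downstream of deadenylation, 7 of 17 decapping and 5′ decay factors fell and 3 rose, at a median of -0.27. Of all genes 25.7% fell and 25.2% rose, or 32.6% and 34.4% with the replicate block. DCP1B, a decapping coactivator, changed by -1.78 ± 0.23, EIF4ENIF1, a repressor that binds the cap-binding protein, by -0.87 ± 0.14, and LSM14A, a component of P-bodies, by -0.69 ± 0.15, whereas LSM5, of the LSM ring, rose by 0.62 ± 0.15. Of 15 exosome and Ski complex genes 7 fell and 1 rose (9 and 2 with the replicate block), at a median of -0.39, with the exosome subunits EXOSC9 at -2.03 ± 0.18, EXOSC3 at -1.58 ± 0.13, EXOSC10 at -1.33 ± 0.19 and EXOSC6 at -0.78 ± 0.14.

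Of 8 poly(A)-binding proteins and partners tested from 9 listed, 3 rose and 1 fell (5 and 1 with the replicate block), where 25.2% of all genes rose and 25.7% fell, at a median of 0.79. PABPC1, the main cytoplasmic poly(A)-binding protein, averaged 1050 ± 351 CPM (SD, n = 3) in knockdown cells with triptolide and 604 ± 163 CPM with DMSO, and 906 ± 316 and 586 ± 152 CPM in control cells, a log2 change of 0.71 ± 0.24 (edgeR adjusted p = 0.0206). PAIP2 and PAIP2B, inhibitors of PABPC1, each rose by 0.88 (SE 0.19 and 0.23), and PAIP1, its coactivator in translation, changed by -0.84 ± 0.21. The 13 mitochondrially encoded mRNAs, which RNA polymerase II does not make, all rose, at a median of 1.33, with MT-ND3 at 1.57 ± 0.24, MT-ND1 at 1.41 ± 0.26, MT-CO2 at 1.46 ± 0.28 and MT-CO3 at 1.03 ± 0.17. These rises are relative to the bulk of genes: under scaling to mitochondrial mRNAs the median gene moves down to -1.07, by more than the rise of any poly(A)-binding gene named. In knockdown against control cells over the 3 treatments, 0 genes of each of these lists were called, where 0.836% of all genes were. With the replicate block 1 gene of the poly(A)-binding list was called lower, where 3.39% of all genes were called in either direction.

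**Figure D4:**
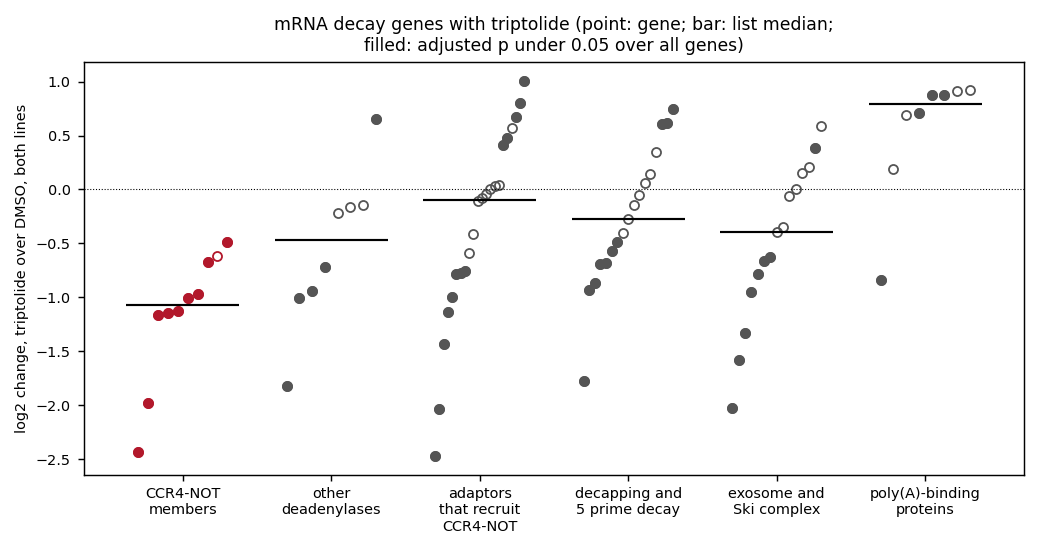
Log2 change, triptolide over DMSO in the mean of both lines, of each gene in 6 lists of mRNA decay genes, with 1 point per gene, a bar for the list's median and filled points for an edgeR adjusted p under 0.05 over all genes. The CCR4-NOT members (red) all lie below 0, at a median of -1.07, the poly(A)-binding proteins lie mostly above it at 0.79, and the other lists spread over both sides.

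Across the 6 groups the subunits did not share a single pattern. The likeness of each gene to CNOT1 was measured as the root mean square difference between their 6 group means of log2 CPM, each centred on its own mean, over 14391 genes with at least 1 CPM. The nearest genes were FOXN3 (0.031), GRB10 (0.0315), KIF2A (0.0329), UTP25 (0.0384) and ZNF382 (0.0401). The nearest members were CNOT8 at rank 190 (0.0782), CNOT4 at 353 (0.0927), CNOT10 at 513 (0.103) and CNOT3 at 640 (0.111). CNOT7 followed at rank 2198, CNOT6 at 3864 and CNOT11 at 3883, which kept more of their mRNA than CNOT1, and CNOT6L at 6504 and CNOT2 at 8991, which kept less. This is a description of 6 means, which share their libraries.

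Reads that map equally well to a copy are set aside as not unique, a tally of 14.2 to 22.6% of each file's sum in triptolide and 10.2 to 16% in DMSO and untreated libraries, and are not in these counts, and how many came from the subunits was not measured. The pseudogenes CNOT7P1, CNOT7P2, CNOT6LP1 and CNOT4P1 had 34, 8, 22 and 13 counts summed over the 18 libraries, at most 0.201% of those of their parent genes. Opposite-strand neighbours hold more: SETD6 covers 12.5% of the exon length of CNOT1 and had 8.87% as many counts, and FAXDC2 covers 4.15% of that of CNOT8 and had 14.3% as many. A noncoding RNA on the opposite strand covers 18.8% of the exon length of CNOT7. It has no gene ID in the count files, so its reads could not be counted apart from those of CNOT7. The antisense RNAs PRANCR, beside CNOT2, and CNOT10-AS1, beside CNOT10, had 347 and 51 counts.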

How the data were processed

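The authors deposited raw counts per gene, 1 file per library, with no normalization. Per the submitters' processing notes, reads were aligned to hg19 with STAR 2.4.2a and counted with HTSeq 0.6.1, and DESeq2 1.4.5 in R 3.1 was used for comparisons. The strand setting and the annotation release are not given in the sources used here. Per the labels' protocols, the library kit was for stranded total RNA. Of 60252 gene IDs, 97.6% matched GENCODE release 44 mapped to GRCh37 by ID, the source of symbols and positions. Left out were 5 tallies per file of reads outside genes. Depth was 26.7e6 to 35.7e6 counts in genes per library, and no library copied another (replicates differed by a chi-square of at least 53.4 times its degrees of freedom).

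After TMM scaling, groups were compared by quasi-likelihood tests (edgeR 4.0.16 under R 4.3.3) in a single fit of 18 libraries with 12 residual degrees of freedom, after the package's low-count filter by group (21285 genes). Tests are two-sided, p-values are adjusted by Benjamini-Hochberg over all genes tested in a comparison, and the threshold is 0.05. Log2 changes carry a standard error taken from the test statistic. Two-sided exact permutation tests compared log2 count ratios of paralogs, with 0.5 added to each count. P-values measure the spread between replicates that the labels call biological.

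Equal replicate numbers pair the libraries: residuals of same-numbered libraries of different groups correlated at r of 0.31 to 0.69 over 45 pairs, and those of different numbers at -0.52 to 0.00 over 90 pairs. A fit with that number added as a block, leaving 10 residual degrees of freedom, is therefore given beside a result where it changes a call or moves a count by over 1.5 times.

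Named were all members, ADAR, up to 4 members of each other list with the smallest p among those called for triptolide over both lines, and the 5 genes nearest to CNOT1 in group means. Some results that these rules would name are not reported here. Members, lists and tests were chosen with earlier results of these data known. Alternatives were other scalings (DESeq2 1.42.0 size factors, library totals, mitochondrial mRNAs), the DESeq2 Wald test, no low-count filter, a fit of the compared groups only, the replicate block and each library left out. A table of protein sequences was not used here.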

Additional observations from a re-analysis of the deposited data

How the results depend on the processing

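Across the scalings, tests and filters tried, the 10 members kept a lower level with triptolide in both lines, and none was called higher. Library totals and mitochondrial scaling set the median gene itself lower, at -0.63 and -1.07 over both lines. Neither could therefore have raised a member, and neither tests the direction. In control cells the count of members called was 10 with scaling to mitochondrial mRNAs, where the median gene itself stood at -0.79. The share of all genes called under that scaling in control cells is not given here, so this count does not set the members apart. In knockdown cells the members called ranged over 5 to 9 as single libraries were left out, with 5 without triptolide replicate 1 or DMSO replicate 2. Of all genes, 6075 to 7265 were then called in either direction, beside 7589 in the full fit. The difference in the CNOT7 over CNOT8 ratio, 0.42, passed the sign-flip test by replicate pairs and, without triptolide replicate 2 of the knockdown line, the permutation test. It ranged over 0.27 to 0.56 as single libraries were left out.

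Between knockdown and control cells no member was called under any alternative, and small changes turned sign. Over the 3 treatments, scaling to mitochondrial mRNAs gave 0.12 for CNOT1, 0.06 for CNOT2, 0.08 for CNOT3, 0.06 for CNOT7, 0.02 for CNOT8 and 0.08 for CNOT10, and library totals gave 0.03 for CNOT1. Leaving out single libraries ranged over -0.17 to 0.07 for CNOT1, -0.12 to 0.01 for CNOT2, -0.14 to 0.04 for CNOT3, -0.18 to 0.01 for CNOT10 and -0.05 to 0.05 for CNOT11. It ranged over -0.06 to 0.13 for the CNOT7 over CNOT8 ratio and, untreated, over -0.02 to 1.03 for CNOT6.

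The number of genes called in the whole table, which is the background to the members' counts, moved more. With the replicate block it was 12163 for triptolide in knockdown cells and 11089 in control cells, beside 7589 and 6565 without it. With scaling to mitochondrial mRNAs it was 12240 in knockdown cells, where the median gene stood at -1.36. Of these 11413 were lower and 827 higher, beside 4029 lower and 3560 higher in the main fit. For knockdown against control with triptolide, 14 genes were called, beside 137 with the replicate block, 8 with scaling to mitochondrial mRNAs, 42 by the DESeq2 Wald test, 60 without the low-count filter and 8 with only the groups compared. With DMSO, 20 were called, beside 129 with the replicate block, 44 by DESeq2, 74 without the filter and 4 with only the groups compared. Untreated, 21 were called, beside 123 with the block, 13 with mitochondrial scaling, 54 by DESeq2, 91 without the filter and 5 with only the groups compared. Over the 3 treatments, 178 were called, beside 721 with the block, 75 with mitochondrial scaling, 311 by DESeq2 and 320 without the filter. For the interaction, 0 were called, beside 1 with the block, 1 by DESeq2 and 3 without the filter. For DMSO against untreated knockdown cells, 0 were called, beside 25 without the filter. Single libraries left out gave 9 to 17 with triptolide (9 without knockdown replicate 1 or 3), 12 to 16 with DMSO (12 without control replicate 2 or 3) and 10 to 16 untreated (10 without knockdown replicate 1, 11 without knockdown replicate 3 and 12 without control replicate 3). The cause of these moves was not tested. The replicate block changed no call of a member other than those given beside the members above.

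With 3 libraries per group, the members' standard errors over the 3 treatments were 0.12 to 0.23. Changes of subunit mRNA between the lines within the 95% intervals given are not shown to be absent. These intervals are not a limit of detection, since a call needs an adjusted p under 0.05 over all genes tested.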
